A study of Mus musculus with 20 samples.

Results

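Partial hepatectomy (PHx) removes part of the liver, and the lobes left behind then grow. The results below describe, gene by gene, how this response differed between mice that lack Eed in hepatocytes and wild-type mice. All 20 libraries of the series enter, in 4 groups of 5. For each gene the change from baseline to after PHx was taken within each genotype, and the wild-type change was subtracted from the knockout change. Of 46603 gene identifiers, 14661 had enough reads for this comparison. A negative value of the difference, on the log2 scale, means that the gene rose less or fell more in the knockout.

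Wild-type (WT) mice were C57BL/6J animals bought from The Jackson Laboratory. Knockout (KO) mice, named EedHepKO, came from a cross of an Alb:Cre line with an Eedflox line and were inbred further. The albumin promoter drives Cre in hepatocytes, where it removes the stretch of Eed between loxP sites at exons 3 and 6. Loss of Eed was not measured by cell type here. All mice were male, 2 months old and fed standard chow. Baseline samples (0 h) were lobes 1, 2 and 3 taken out at surgery, and the samples after PHx were lobes 4, 5 and 6 of the same mice. Those later lobes were collected at 30 h (WT mouse 1, KO mouse 12), 40 h (WT mice 2 and 3, KO mice 10 and 11) or 48 h (WT mice 4 and 5, KO mice 7 and 8). No group carried Cre or the floxed alleles alone, and no group had a sham operation. Genotype and colony of origin cannot be told apart here, and neither can PHx and lobe.

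Hepatocytes are normally quiescent. After PHx they show an acute phase response and a shift in lipid handling, then enter the cell cycle and return to quiescence once mass is restored. EED is a core subunit of polycomb repressive complex 2 (PRC2), which methylates histone H3 and keeps developmental and fetal genes silent in adult tissue. The comparison addresses whether liver without PRC2 function in hepatocytes answers resection with the same programme.

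Totals ran from 21634890 to 30461351 counts per library. The scaling factors of the TMM method, which corrects for the makeup of each library, spanned 0.670 to 0.806 in WT before surgery and 0.977 to 1.51 in KO after it, so the choice of scaling bears on the comparison. All 8 hepatocyte markers had counts in each group, and their summed level was 125520 to 146310 CPM (counts scaled to a common library total) in WT before surgery, 75490 to 136900 in WT after it, 80697 to 108390 in KO before and 46034 to 108140 in KO after. Eed itself averaged 16.8, 18.4, 5.64 and 4.62 CPM in WT before surgery, WT after it, KO before and KO after, and its difference of responses was -0.42 (adjusted p 0.579). These counts cover the whole gene, including exons outside the deleted stretch and RNA of cells without Cre.

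In 57 of the 14661 genes (0.389%) the PHx response differed between the genotypes at an adjusted p under 0.05. These p-values come from edgeR's quasi-likelihood test with Benjamini-Hochberg adjustment over all genes, as do all adjusted p-values below unless another tool is named. In 33 genes (0.225%) the response was lower in KO, among them the acute phase genes Saa1, Saa2, Orm2 and Apcs, the transcription factor gene Mybl1 and the sphingomyelinase gene Smpd3. In 24 genes (0.164%) it was higher in KO, among them the fetal growth factor gene Igf2, the taurine synthesis gene Csad and the lipid droplet genes Abhd5 and Pparg. The size of the log2 difference ran from 1.57 to 6.44 in the lower set and from 1.05 to 6.20 in the higher set. At an unadjusted p under 0.05 there were 1957 genes (13.3%), 883 lower (6.02%) and 1074 higher (7.33%).

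The call counts moved with the analysis. With the mouse as a replicate block, on the 18 libraries of the 9 mice numbered at both stages, 5 genes were lower and 2 higher, and 5 of the 57 kept their call: Gm19705, Smpd3, Mtmr11, Syt12 and Csad. Without the block the same 18 libraries gave 25 lower and 9 higher. With library size alone as the scaling, 48 genes were lower and 9 higher, a split further towards lower responses than 33 and 24.

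Genes called in the responses of both genotypes mostly moved the same way. The WT and KO responses, which have no library in common, correlated across the 14661 genes with Pearson r 0.64 and Spearman rho 0.64, given as a description since genes are not independent replicates. In WT 1677 genes rose (11.4%) and 1273 fell (8.68%), 20.1% in all, and in KO 2561 rose (17.5%) and 1770 fell (12.1%), 29.5% in all. Of the genes that rose in WT, 800 also rose in KO and 6 fell. Of those that fell in WT, 812 also fell in KO and 8 rose. The 1677 genes that rose in WT had a median log2 change of 1.70 in WT and 1.03 in KO, while the 2561 that rose in KO had 1.30 in KO and 0.61 in WT. In each case the genotype used to choose the genes shows the larger median.

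**Figure D1:**
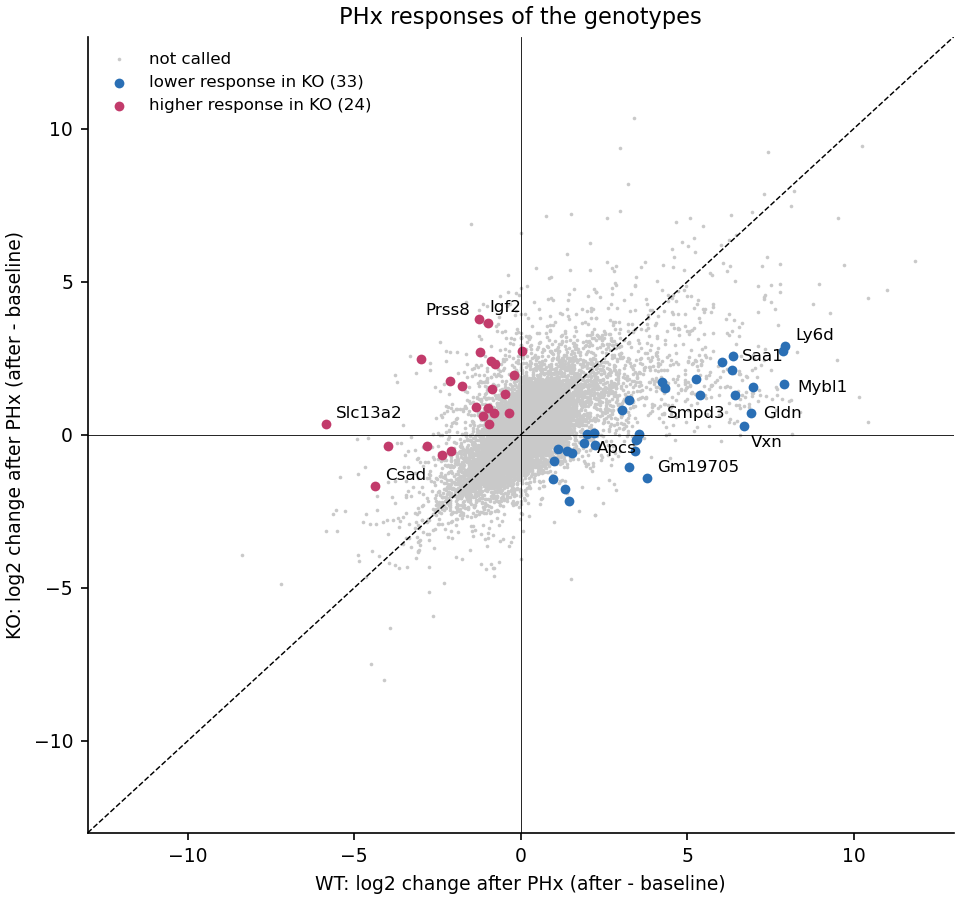
Each point is 1 of the 14661 genes, with its log2 change after PHx in WT on the horizontal axis and in KO on the vertical axis; the dashed line marks equal responses. The 33 genes with a lower response in KO (blue) lie to the right, at a median WT change of 3.49, and the 24 with a higher response in KO (red) lie to the left, at a median WT change of -1.17.

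The lower and higher sets had different forms. Across the 33 lower genes the median log2 change was 3.49 in WT and 0.06 in KO, and across the 24 higher genes it was -1.17 in WT and 1.13 in KO. Since the difference is computed from the same libraries as the single contrasts, the following counts describe its form and add no evidence. Of the 33 lower genes, 32 rose in WT, and in KO 11 rose, 4 fell and 18 were not called. At baseline, where 16% of all genes were called (11.1% higher in KO, 4.89% lower), 29 of the 33 were already higher in KO than in WT. After PHx, where 24.2% of all genes were called (16% higher, 8.2% lower), 4 were higher, 10 lower and 19 not called. In 8 of the 33, the KO mean before surgery was at or above the WT mean after it. Of the 24 higher genes, 14 fell in WT and 17 rose in KO, 10 were lower in KO at baseline and 18 were higher in KO after PHx. The gap between the genotypes was thus smaller after PHx in 27 of the 33 lower genes, and larger after PHx in 16 of the 24 higher genes.

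The change within each mouse, as log2 of CPM plus 0.5, could be taken in 4 WT and 5 KO mice. Among all genes, 4.0% had changes that did not overlap between the genotypes, 1.92% with all KO mice below and 2.08% with all above. Of the 33 lower genes 25 did not overlap, and of the 24 higher genes 17. The genes were chosen for this difference in the same libraries, so these counts are a description and add no evidence.

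Acute phase genes, which the liver turns on in inflammation, made up 4 of the 33 lower genes. The list held 38 genes, all tested, of which 4 had a lower response in KO (0.225% of all genes) and none a higher one, and 12 were lower at an unadjusted p under 0.05 (6.02% of all genes). The median log2 difference of the list was -0.80, beside 0.00 over all genes tested, and 33 of 38 members were below 0. In WT 22 members rose (11.4% of all genes) and 1 fell, and in KO 14 rose (17.5% of all genes) and 2 fell. Neutrophil markers also lay lower: 0 of 8 tested were called, all 8 were below 0, and their summed level was 1.33 to 2.5 CPM in WT at baseline, 2.13 to 55.8 in WT after PHx, 4.41 to 13 in KO at baseline and 7.44 to 94.8 in KO after PHx. Of 11 neutrophil markers 3 had no count in WT at baseline and 1 had none in KO at baseline. At 40 h the median difference of the 8 tested markers was -5.28, with 2 called lower (0.628% of all genes). At 48 h it was -0.60 with 0 of these markers called. Their part in the acute phase result was not tested.

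Saa1 and Saa2 encode serum amyloid A, a lipoprotein-bound protein that is among the most inducible products of mouse liver. Saa1 (ENSMUSG00000074115, chromosome 7, 46740497 to 46742980, - strand, protein coding) and Saa2 (ENSMUSG00000057465, chromosome 7, 46751790 to 46754313, + strand, protein coding) lie side by side and point away from each other. They are close paralogs, and only uniquely mapped reads were counted, per the design text, so the split of reads between them is uncertain. The 250 bases before each RefSeq start site are printed because these neighbours moved together, and Orm2 and Apcs follow for comparison. They are from RefSeq (GRCm38.p6), 5′ to 3′ on the gene's own strand. Capitals mark matches to TTGCNNAA, a core of C/EBP sites, or TTCNNNGAA, a core of STAT sites, with N for any base.
Saa1, chr7:46742981-46743230, - strand: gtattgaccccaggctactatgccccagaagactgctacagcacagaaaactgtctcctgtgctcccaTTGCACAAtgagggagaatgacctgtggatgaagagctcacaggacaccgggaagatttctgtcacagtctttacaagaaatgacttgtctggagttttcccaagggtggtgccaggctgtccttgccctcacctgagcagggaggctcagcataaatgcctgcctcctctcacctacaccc
Saa2, chr7:46751583-46751832, + strand: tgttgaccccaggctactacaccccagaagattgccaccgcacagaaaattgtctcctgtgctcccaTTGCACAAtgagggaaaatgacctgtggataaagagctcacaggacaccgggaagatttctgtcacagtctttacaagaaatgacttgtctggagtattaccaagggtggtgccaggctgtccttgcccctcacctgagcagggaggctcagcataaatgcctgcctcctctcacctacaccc
Orm2, chr4:63362199-63362448, + strand: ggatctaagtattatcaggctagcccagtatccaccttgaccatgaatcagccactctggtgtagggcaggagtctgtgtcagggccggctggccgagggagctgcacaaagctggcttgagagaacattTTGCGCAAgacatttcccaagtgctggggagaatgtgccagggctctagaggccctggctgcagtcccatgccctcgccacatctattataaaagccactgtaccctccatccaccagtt
Apcs, chr1:172895055-172895304, - strand: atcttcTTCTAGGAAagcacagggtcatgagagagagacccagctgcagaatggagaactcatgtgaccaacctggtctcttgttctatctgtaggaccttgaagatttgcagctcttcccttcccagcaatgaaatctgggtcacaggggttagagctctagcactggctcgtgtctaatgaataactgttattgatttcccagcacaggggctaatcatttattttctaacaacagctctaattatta

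Aligned end to end, the Saa1 and Saa2 windows were identical at 238 of 251 positions, gaps included (94.8%), against 47% to 49.4% for the other pairs. Saa1 and Saa2 carried the same 8 bases, TTGCACAA, starting 182 and 183 bases before the start site. Orm2 held TTGCGCAA, which reads the same on both strands, 120 bases before its start. Apcs held TTCTAGGAA, starting 244 bases before its start. Both strands were searched, and no 2 matches of different motifs overlapped. Of 32851 windows of the same length in the table, 9.56% held TTGCNNAA and 7.02% held TTCNNNGAA, so a match is a description and not a site.

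Saa1 was at 63.8, 37.5, 27.2, 55.2 and 19.3 CPM in WT baseline replicates 1 to 5 and at 6472, 3322, 3316, 1408 and 1938 CPM in WT mice 1 to 5 after PHx. In KO mice 7, 8, 10, 11 and 12 it was at 179, 428, 60.9, 66.9 and 51.8 CPM at baseline and 534, 201, 1687, 496 and 517 CPM after PHx. Every WT library rose far above its baseline range, whereas the KO ranges before and after overlapped, KO mouse 8 being high before and low after. KO mouse 10 after PHx was the one KO library inside the WT range after PHx. The log2 change was 6.34 in WT and 2.13 in KO, a difference of -4.22 (SE 0.88, adjusted p 0.0418). It was called in 6 of the 20 fits that left out 1 library, with an adjusted p of up to 0.0864, reached without WT baseline replicate 5, and was not called with the mouse block (adjusted p 0.29).

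Saa2 was at 17.7, 15.4, 9.93, 22.8 and 5.64 CPM in WT at baseline and 6886, 3396, 3158, 1418 and 1792 CPM after PHx. The KO libraries had 120.2, 288, 33.5, 37.1 and 34.6 CPM at baseline and 549, 194, 1635, 483 and 561 CPM after PHx. At baseline each KO library lay above each WT library, and after PHx only that of KO mouse 10 reached the WT range. The difference of responses was -5.13 (SE 0.94, adjusted p 0.0176), called in 20 of the 20 fits without 1 library but not with the mouse block (adjusted p 0.234). In the single contrasts the KO level was 7.18-fold the WT level at baseline, and after PHx the log2 gap was -2.28 in the other direction.

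Orm2 (ENSMUSG00000061540, chromosome 4, 63362449 to 63365878, + strand, protein coding), which encodes an alpha-1-acid glycoprotein, a plasma carrier protein, was at 10.9, 10.05, 6.84, 13.7 and 5.0 CPM in WT at baseline and 239, 119.9, 317, 80.4 and 128 CPM after PHx. In KO it was at 90.3, 74.2, 60.2, 41 and 26.2 CPM and then 262, 126, 242, 149.9 and 195 CPM. The baseline ranges did not overlap, KO being higher, and the ranges after PHx did. The difference of responses was -2.51 (SE 0.54, adjusted p 0.0454), called in 6 of the 20 fits without 1 library (adjusted p up to 0.0953, reached without WT after PHx replicate 3) and not with the mouse block (0.279).

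Apcs (ENSMUSG00000026542, chromosome 1, 172893961 to 172895041, - strand, protein coding), which encodes serum amyloid P component, a pentraxin that is a main acute phase protein of mice, had another form. In WT it was at 70.9, 90.6, 73.1, 79.5 and 65.1 CPM at baseline and 323, 305, 439, 269.9 and 164 CPM after PHx. Among KO mice it was at 48.3, 87.8, 32.4, 52.6 and 48.8 CPM at baseline and 64.9, 57.8, 65.2, 56.4 and 28.1 CPM after PHx. All 5 WT libraries after PHx lay above all others, while the KO ranges before and after overlapped and the baseline ranges of the genotypes did too. The log2 change was 1.98 in WT and 0.01 in KO, a difference of -1.97 (SE 0.38, adjusted p 0.0264), called in 16 of the 20 fits without 1 library (adjusted p up to 0.0633, reached without WT baseline replicate 5) and not with the mouse block (0.178). Lcn2, an acute phase gene for the iron-siderophore binding protein lipocalin 2, missed the threshold, with means of 5.05, 2519.7, 51.2 and 1560 CPM in WT before surgery, WT after it, KO before and KO after and a difference of -4.03 (adjusted p 0.0669).

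**Figure D2:**
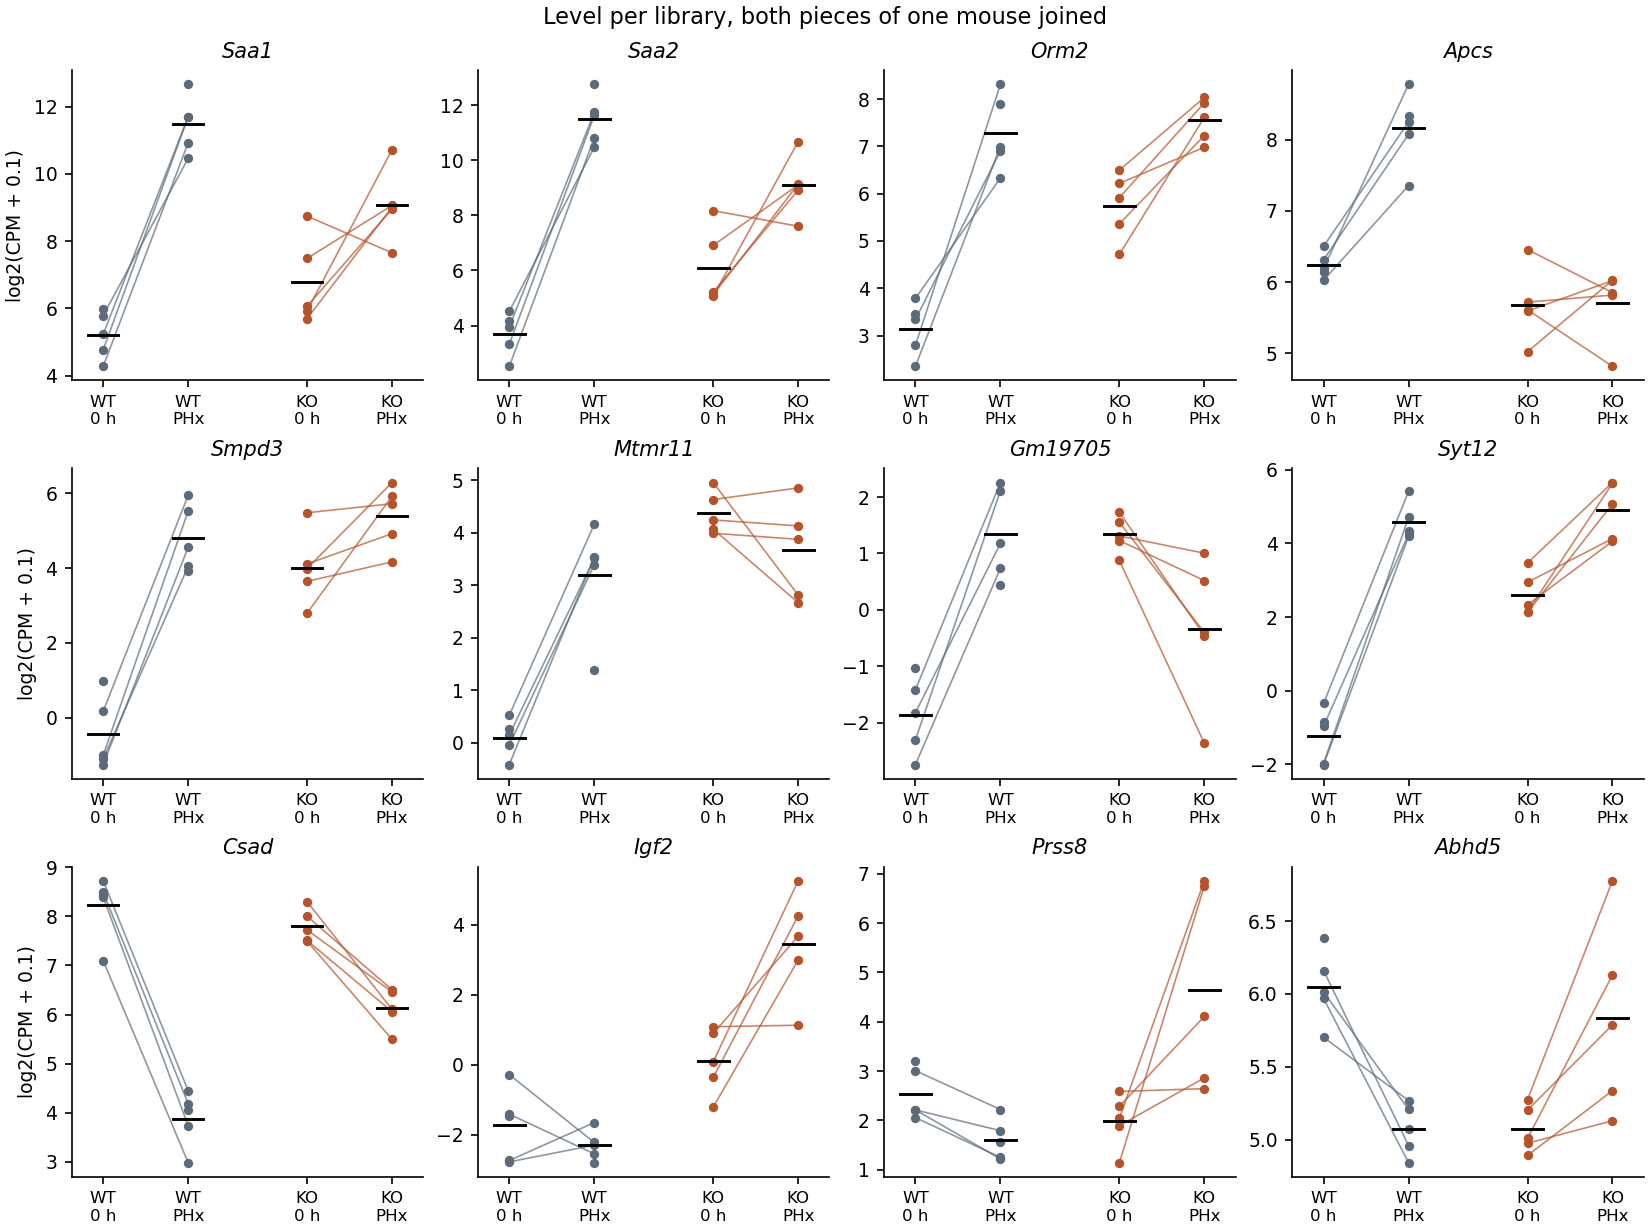
Each panel shows 1 gene in the 20 libraries, as log2 of CPM plus 0.1, with lines joining the samples of a mouse, bars at the group mean, WT in grey and KO in orange; WT mouse 1 has no line because its baseline title carries no mouse number. Saa1, Saa2, Orm2, Smpd3, Mtmr11, Gm19705 and Syt12 have higher means in KO at baseline, Apcs is higher after PHx in all WT libraries while its KO libraries before and after overlap, and Csad falls in each line but less in KO.

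The other lower genes with the firmest calls included Mtmr11 (ENSMUSG00000045934, chromosome 3, 96162004 to 96171718, + strand, protein coding), Syt12 (ENSMUSG00000049303, chromosome 19, 4445908 to 4477447, - strand, protein coding) and Gm19705 (ENSMUSG00000097113, chromosome 1, 136670769 to 136690804, + strand, long non-coding). Mtmr11 belongs to the myotubularin-related proteins and Syt12 to the synaptotagmins, a family of membrane trafficking proteins. Both kept their call with the mouse block (adjusted p 0.0136 and 0.0351), as did Gm19705 (0.0351) and Smpd3 (0.0351). Mtmr11 was at 1.11, 0.65, 1.34, 0.871 and 1.01 CPM in WT at baseline and 2.53, 11.5, 17.8, 10.4 and 11.3 CPM after PHx. The KO libraries had 31, 18.8, 15.8, 24.7 and 16.7 CPM before and 6.92, 17.4, 14.6, 28.8 and 6.25 CPM after. KO libraries at baseline were thus already about as high as, or higher than, the WT libraries after PHx, and the difference of responses was -3.96 (SE 0.62, adjusted p 0.00952).

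Gm19705 was at 0.39, 0.050, 0.103, 0.275 and 0.183 CPM in WT at baseline and 1.26, 1.57, 4.22, 4.68 and 2.16 CPM after PHx. For KO mice it was at 3.22, 2.83, 2.38, 2.24 and 1.74 CPM before and 0.629, 0.659, 1.91, 1.33 and 0.0947 CPM after. WT rose without overlap, and in KO each mouse had less after PHx than before. The difference was -5.21 (SE 0.84, adjusted p 0.00952), and Gm19705 and Csad were the 2 genes of the 57 that were called in all 34 alternatives.

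Syt12 was at 0.455, 0.15, 0.154, 0.688 and 0.413 CPM in WT at baseline and 19.9, 18.2, 26, 42.5 and 18.9 CPM after PHx. In KO the libraries had 11, 7.61, 4.28, 4.94 and 4.32 CPM before and 50.2, 17.4, 33.6, 16.6 and 49.5 CPM after. The baseline ranges did not overlap and the ranges after PHx did. The difference of responses was -3.68 (SE 0.60, adjusted p 0.00952).

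Smpd3 (ENSMUSG00000031906, chromosome 8, 106252548 to 106337988, - strand, protein coding), for neutral sphingomyelinase 2, which makes ceramide from sphingomyelin, was at 1.89, 0.40, 1.03, 0.321 and 0.367 CPM in WT at baseline and 15.1, 46, 61.5, 23.4 and 16.4 CPM after PHx. Across KO livers it was at 44.6, 15.8, 17.2, 6.85 and 12.4 CPM before and 52.7, 78.1, 30.2, 60.7 and 17.9 CPM after. KO mouse 7 was highest at baseline, and again only the baseline ranges of the genotypes were apart. The difference was -4.08 (SE 0.81, adjusted p 0.029), called in 15 of the 20 fits without 1 library (adjusted p up to 0.0712, reached without WT baseline replicate 5).

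Mybl1 (ENSMUSG00000025912, chromosome 1, 9667415 to 9700209, - strand, protein coding), for the transcription factor A-MYB of the family that also drives cell cycle genes, went from nearly no reads to a clear level in WT. It was at 0, 0.10, 0.0515, 0.138 and 0.0459 CPM in WT at baseline and 17.2, 13, 12.1, 15.2 and 33.2 CPM after PHx, with WT mouse 5 highest. The KO libraries had 9.59, 5.66, 1.72, 3.49 and 1.55 CPM before and 5.93, 9.03, 22.1, 30.1 and 2.27 CPM after, so KO overlapped with itself across PHx. The difference was -6.26 (SE 1.02, adjusted p 0.00952), called in 20 of the 20 fits without 1 library and at adjusted p 0.0732 with the mouse block.

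Ly6d (ENSMUSG00000034634, chromosome 15, 74762056 to 74763620, - strand, protein coding), for a membrane-anchored protein of the Ly6 family, stood on the list of fetal and oncofetal liver genes. It was at 0.39, 0.65, 0, 0.459 and 0.367 CPM in WT at baseline and 84, 147, 180.4, 35.3 and 20.4 CPM after PHx. The KO libraries had 79.5, 26.1, 13.9, 20.2 and 11.9 CPM before and 86.7, 420.4, 145, 405 and 63.2 CPM after. Both genotypes rose, from a start that was far higher in KO, and the difference was -5.06 (SE 1.05, adjusted p 0.0414), called in 9 of the 20 fits without 1 library (adjusted p up to 0.0847, reached without WT baseline replicate 5) and at 0.241 with the mouse block. Slpi, for a secreted inhibitor of leukocyte proteases, moved in the same form, from 0.065, 0.15, 0.103, 0.0917 and 0.183 CPM in WT at baseline to 2.92, 14.9, 23.7, 8.3 and 1.89 CPM after PHx. In KO it went from 8.96, 4.9, 3.17, 3.78 and 2.91 CPM to 30.6, 28.9, 29.8, 18.1 and 33.5 CPM, each KO library after PHx lying above each KO baseline library. Its difference was -3.79 (SE 0.82, adjusted p 0.0466), called in 3 of the 20 fits without 1 library (adjusted p up to 0.101, reached without WT baseline replicate 1) and at 0.146 with the mouse block.

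Abcb4 and Apoc2 were among the lower genes with high levels. Abcb4 (ENSMUSG00000042476, chromosome 5, 8893717 to 8959231, + strand, protein coding) encodes the transporter that moves phosphatidylcholine into bile. It was at 304, 199.8, 293, 249 and 263 CPM in WT at baseline and 498, 1353, 823, 811 and 351 CPM after PHx. In KO it was at 388, 371, 355, 384 and 397 CPM before and 131, 279, 290.5, 330.1 and 214 CPM after. Abcb4 rose in WT and each KO mouse had less after PHx than before (the KO change did not pass the test), and after PHx the ranges did not overlap, WT being higher. The difference was -2.16 (SE 0.41, adjusted p 0.0232), called in 18 of the 20 fits without 1 library (adjusted p up to 0.052, reached without WT baseline replicate 5) and at 0.138 with the mouse block.

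Apoc2, which encodes the cofactor of lipoprotein lipase, was at 179, 164, 187, 164 and 139 CPM in WT at baseline and 677, 2559.7, 1787, 1271 and 553 CPM after PHx. Among KO mice it was at 1339.9, 1062, 1241, 741 and 1290.2 CPM before and 2476, 2117, 2735, 1276 and 1324 CPM after. The baseline ranges were apart, KO being higher, and the ranges after PHx overlapped. The difference was -2.23 (SE 0.48, adjusted p 0.0454), called in 4 of the 20 fits without 1 library (adjusted p up to 0.0986, reached without WT after PHx replicate 3) and at 0.0957 with the mouse block. Anxa5, for the phospholipid-binding protein annexin A5, had means of 65.7, 173, 190.2 and 131 CPM in WT before surgery, WT after it, KO before and KO after, and a difference of -1.93 (adjusted p 0.0148).

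In 6 of the lower genes KO lay above WT at baseline and below it after PHx, each passing the test: Saa1, Saa2, Gm19705, the lncRNA gene Gm19619, the trehalase gene Treh and Srrm4, which encodes a splicing regulator known from neurons. Srrm4 had means of 6.9 ± 1.91 CPM in WT at baseline, 19 ± 7.83 CPM in WT after PHx, 15.6 ± 3.97 CPM in KO at baseline and 3.52 ± 2.53 CPM in KO after PHx (SD, n = 5). It rose in WT by 1.46 and fell in KO by 2.16 on the log2 scale, and the difference was -3.62 (SE 0.54, adjusted p 0.00952), called in 20 of the 20 fits without 1 library and at adjusted p 0.0505 with the mouse block. Dusp8, for a phosphatase of MAP kinases, also rose in WT and fell in KO, with means of 1.74, 4.37, 14 and 4.15 CPM in the same order of groups and a difference of -3.08 (adjusted p 0.00952). A230050P20Rik was the third gene that rose in WT and fell in KO, with a difference of -1.87 (adjusted p 0.0264).

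Genes with almost no reads in WT at baseline give less precise sizes. Gldn, for the adhesion protein gliomedin, had no count in the 5 WT baseline libraries and was at least 19-fold higher in WT after PHx, taking 3 counts over the group as the floor. In KO it averaged 12.1 CPM before and 19.6 CPM after. Vxn had 1 count in WT at baseline, a ratio of 164 after PHx with a 95% counting interval of 29.1 to 6512. For Gm11695, which lies antisense to Slc16a5, the ratio was 181 (32.1 to 7172), and for the dynein heavy chain gene Dnah1 99 (33.6 to 482). Slc16a5, for a monocarboxylate transporter family member, was itself called, at -2.82 (adjusted p 0.0264). No source used here says whether counting used strand, so reads of that pair cannot be told apart, nor can those of other called genes with a neighbour on the opposite strand, such as Smpd3, Mtmr11, Syt12, Csad, Prss8 and Igf2.

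The rest of the lower set spanned several functions. Pdgfa, which encodes a platelet-derived growth factor chain, had a difference of -2.14 (adjusted p 0.0176), and the interferon-inducible family member Ifi27l2b -3.64 (adjusted p 0.00952). Samd4, for an RNA-binding protein of the Smaug family, was at -2.58 (adjusted p 0.00952) and the retinol dehydrogenase family gene Rdh9 at -2.16 (adjusted p 0.0148). Synpo, for the actin-associated protein synaptopodin, was at -2.12 (adjusted p 0.0255), the lysosomal sulfatase gene Galns at -1.57 (adjusted p 0.0363) and the autophagy-related gene Atg16l2 at -2.43 (adjusted p 0.0363). The remaining 2 were Gm379 at -3.61 (adjusted p 0.0454) and Ccdc120 at -3.46 (adjusted p 0.029). Calls of 14 of the 33 lower genes held in all 20 fits that left out 1 library: Mybl1, Gm19705, Dnah1, Saa2, Gm19619, Mtmr11, Syt12, Ifi27l2b, Srrm4, Dusp8, Samd4, Rdh9, Pdgfa and Anxa5.

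Among the 24 genes with a higher response in KO, Csad (ENSMUSG00000023044, chromosome 15, 102176999 to 102204724, - strand, protein coding) had the firmest call. It encodes cysteine sulfinic acid decarboxylase, a key enzyme of taurine synthesis in liver. Csad was at 347, 335, 423, 137 and 359 CPM in WT at baseline and 16.5, 13.2, 21.7, 7.8 and 18.1 CPM after PHx. For KO mice it was at 180.2, 182, 256, 315 and 211 CPM before and 44.9, 66.5, 90.6, 68.7 and 87.9 CPM after. It fell in both genotypes, the baseline ranges overlapped, and after PHx each KO library lay above each WT library. The log2 change was -4.37 in WT and -1.67 in KO, a difference of 2.70 (SE 0.41, adjusted p 0.00952), also called with the mouse block (adjusted p 0.00612).

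Igf2 (ENSMUSG00000048583, chromosome 7, 142650766 to 142666816, - strand, protein coding), for the imprinted fetal growth factor insulin-like growth factor 2, was at 0.26, 0.050, 0.72, 0.275 and 0.0459 CPM in WT at baseline and 0.0436, 0.217, 0.114, 0.0709 and 0.103 CPM after PHx. Across KO livers it was at 0.332, 0.676, 1.76, 0.955 and 2.02 CPM before and 7.85, 19, 12.6, 38.1 and 2.08 CPM after. All KO libraries after PHx lay above all others, KO mice 8 and 11 being highest and KO mouse 12 barely above the KO baseline range. The difference was 5.06 (SE 1.09, adjusted p 0.0454), called in 3 of the 20 fits without 1 library (adjusted p up to 0.131, reached without WT baseline replicate 3) and at 0.35 with the mouse block. Grb10, an imprinted gene for an adaptor that binds insulin and IGF receptors, had means of 7.45 ± 2.51 CPM in WT at baseline, 2.96 ± 0.792 CPM in WT after PHx, 14.9 ± 4.17 CPM in KO at baseline and 28.3 ± 16.2 CPM in KO after PHx (SD, n = 5), again with KO mice 8 and 11 highest after PHx, and the genotypes did not overlap after PHx. Its difference was 2.25 (SE 0.49, adjusted p 0.0466), called in 3 of the 20 fits without 1 library (adjusted p up to 0.101, reached without WT baseline replicate 1) and at 0.223 with the mouse block.

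Prss8 (ENSMUSG00000030800, chromosome 7, 127925716 to 127930104, - strand, protein coding), for the membrane-anchored protease prostasin, was at 9.1, 7.95, 4.07, 4.54 and 4.54 CPM in WT at baseline and 2.88, 4.57, 2.28, 3.37 and 2.23 CPM after PHx. In KO it was at 4.78, 2.11, 3.62, 4.03 and 5.92 CPM before and 17.1, 108, 7.17, 116 and 6.15 CPM after, the 2 high values again being KO mice 8 and 11. The difference was 4.61 (SE 0.91, adjusted p 0.029), called in 10 of the 20 fits without 1 library (adjusted p up to 0.0698, reached without KO baseline replicate 8) and at 0.356 with the mouse block. The libraries of KO mice 8 and 11 after PHx, highest for Igf2, Grb10 and Prss8, had the lowest hepatocyte marker sums of the 20 libraries (46034 and 46939 CPM, against 65630 to 108140 CPM in the other KO libraries after PHx) and the 2 highest scaling factors. None of these 3 genes was called without the library of mouse 8, or without that of mouse 11. With library size alone as the scaling, the adjusted p was 0.0501 for Igf2, 0.111 for Grb10 and 0.0386 for Prss8. In the libraries of KO mice 8 and 11 after PHx, mesothelial marker sums were 13.5 and 51.1 CPM, the highest of the 20. The other KO libraries after PHx had 7.34 to 9.57 CPM. The mesothelial list holds Krt19, as does the cholangiocyte list. The part of the makeup of the libraries of mice 8 and 11 in the results was not tested. Lad1, for the anchoring filament protein ladinin, had means of 7.73 ± 2.28 CPM in WT at baseline, 7.96 ± 1.98 CPM in WT after PHx, 6.49 ± 2.37 CPM in KO at baseline and 43.7 ± 26 CPM in KO after PHx (SD, n = 5) and a difference of 2.71 (adjusted p 0.0418). Igsf3, for an immunoglobulin superfamily membrane protein, was at 3.92 (adjusted p 0.0454), Carmil1, for a regulator of actin capping, at 3.30 (adjusted p 0.0401), and Rab11fip1, for an effector of Rab11 in endosome recycling, at 2.16 (adjusted p 0.032). Cholangiocyte markers, of which 0 of 11 tested were called in the difference, had summed levels of 149.8, 110.1, 98.7, 119 and 118 CPM in WT at baseline, 89.3, 146, 328, 161 and 111 in WT after PHx, 479.6, 311, 241, 217 and 152 in KO at baseline and 641, 697, 289, 459 and 190.3 in KO after PHx. Of 13 such markers 1 had no count in WT at baseline, and the part of these cells in the results was not tested. In bulk tissue, more cells of a type and more RNA per cell cannot be told apart.

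Lipid droplet genes contributed Abhd5 and Pparg, 2 of 29 tested, both higher (0.164% of all genes), against a list median of 0.15 (-0.07 at 40 h and 0.75 at 48 h). Of this list 0 were higher and 1 lower at 40 h (0.211% and 0.628% of all genes), and 5 were higher at 48 h (1.41%). With library size alone as the scaling 1 was higher and 1 lower, beside 9 and 48 of all 14661 genes. With the mouse block 0 were called. Abhd5 (ENSMUSG00000032540, chromosome 9, 122351608 to 122381524, + strand, protein coding) encodes the co-activator of adipose triglyceride lipase. It was at 83.2, 64.4, 71.4, 52 and 62.5 CPM in WT at baseline and 33.6, 36.8, 31, 38.4 and 28.6 CPM after PHx. Among KO mice it was at 38.6, 32.1, 31.3, 36.7 and 29.6 CPM before and 109.6, 69.9, 34.9, 55.1 and 40.3 CPM after. WT fell without overlap to a range close to that of KO at baseline, and each KO mouse had more after PHx than before. The difference was 1.87 (SE 0.33, adjusted p 0.0176), called in 20 of the 20 fits without 1 library and at 0.098 with the mouse block.

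Pparg, for a nuclear receptor that promotes lipid storage, was at 7.48, 13.6, 12.7, 6.92 and 8.3 CPM in WT at baseline and 6.8, 11.5, 6.77, 5.1 and 4.95 CPM after PHx. For KO mice it was at 3.22, 2.92, 2.76, 3.99 and 3.8 CPM before and 8.57, 10.2, 5.23, 7.7 and 10.3 CPM after. The baseline ranges were apart, KO being lower, KO rose without overlap, and the ranges after PHx overlapped. The difference was 1.81 (SE 0.38, adjusted p 0.0427), called in 3 of the 20 fits without 1 library (adjusted p up to 0.101, reached without KO baseline replicate 7) and at 0.0914 with the mouse block. Plin2, for the main droplet coat protein of hepatocytes, rose by 1.88 in WT and 1.79 in KO, with a difference of -0.09 (adjusted p 0.979).

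Slc13a2 (ENSMUSG00000001095, chromosome 11, 78397087 to 78422217, - strand, protein coding), for a sodium-coupled transporter of citrate and succinate, had the largest positive difference of the 57 genes. It was at 3.58, 5.25, 5.61, 11.1 and 7.75 CPM in WT at baseline and 0.262, 0.13, 0.0381, 0.0709 and 0.0687 CPM after PHx. Across KO livers it was at 0.0664, 0.0845, 0.586, 0.457 and 0.516 CPM before and 0.24, 0.505, 0.114, 1.25 and 0 CPM after. WT at baseline was thus the one group above 2 CPM, and the KO ranges before and after PHx overlapped. The difference was 6.20 (SE 1.12, adjusted p 0.0176), called in 20 of the 20 fits without 1 library and at 0.136 with the mouse block. Depp1, for a protein induced by FOXO factors, fell from 336 to 21.3 CPM in WT, and KO means were 201 and 156 CPM, a difference of 3.61 (adjusted p 0.0176). Bach2, for a transcriptional repressor, fell in WT from 13.9 to 1.99 CPM with KO means of 10.6 and 8.2 CPM, a difference of 2.44 (adjusted p 0.00976).

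The remaining higher genes were Rps6ka6, for an RSK family kinase, at 5.48 (adjusted p 0.0466), and Efr3b, for a membrane scaffold of a phosphatidylinositol kinase, at 3.88 (adjusted p 0.0466). Zbtb7c, for a zinc finger protein, was at 3.36 (adjusted p 0.032), the ubiquitin ligase gene March3 at 3.07 (adjusted p 0.0454) and Hps6, for a subunit of a complex for lysosome-related organelles, at 2.35 (adjusted p 0.0434). Pdcd4, for an inhibitor of translation, was at 1.55 (adjusted p 0.0311), and Utp3, for a ribosomal RNA processing factor, at 1.05 (adjusted p 0.0454). Rnf103, for a ubiquitin ligase of the endoplasmic reticulum, was at 1.30 (adjusted p 0.0466), with Crybg3 at 1.75 (adjusted p 0.0176) and AI661453 at 1.51 (adjusted p 0.0466). Cela1, for an elastase and 1 of 3 tested genes of the pancreas and gut list, was at 1.70 (adjusted p 0.0264). That list's summed level was 94.8 to 107 CPM in WT at baseline and 39.1 to 53.2 in KO at baseline, with 6 and 7 of its 10 genes without a count, and 74.7 to 149 and 54.5 to 139 after PHx, with 7 and 6 without a count, and its part in the result was not tested. Calls of 6 of the 24 higher genes held in all 20 fits that left out 1 library: Csad, Bach2, Abhd5, Crybg3, Depp1 and Slc13a2.

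Cell cycle genes showed large differences that did not pass the test. Of 66 mitosis genes, all tested, 0 were called (edgeR) and 43 were lower in KO at an unadjusted p under 0.05 (6.02% of all genes). DESeq2 called 7 lower, beside 178 of all 14661 genes. The median log2 difference was -4.31 (the same with the 1 member that had no count in WT at baseline placed at its bound), and 65 of 66 were below 0. In WT 62 rose (11.4% of all genes), with a median of 5.97, and in KO 2 rose (17.5% of all genes), with a median of 1.32. At baseline 8 of the 66 were called higher in KO, against 11.1% of all genes, while the median log2 gap between KO and WT was 3.77, beside -0.03 over all genes. Of 51 DNA replication genes 0 were called by edgeR or DESeq2 and 2 were lower at an unadjusted p under 0.05, with a WT median of 2.82, a KO median of 1.77 and a median difference of -1.03. That median turned from 1.68 at 40 h to -1.96 at 48 h and was -0.29 with the mouse block.

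The spread between mice was wide in both genotypes. Mitosis genes summed to 84.2, 76.1, 77.4, 66.8 and 71.3 CPM in WT at baseline and to 1248, 58.4, 239.9, 57.3 and 4762 CPM in WT mice 1 to 5 after PHx. In KO mice 7, 8, 10, 11 and 12 they summed to 563, 340.4, 185, 252 and 159 CPM before and 109, 191, 2739, 422 and 86.5 CPM after. WT mice 1 and 5 were high, WT mouse 3 was raised, and WT mice 2 and 4 lay just below the baseline range. Among KO mice 1, number 10, was high, number 11 rose less, and the other 3 had less after PHx than before. DNA replication genes summed to 2678, 208, 364, 245 and 1151 CPM in WT and 406, 426, 2222, 799 and 421 CPM in KO after PHx, with WT mouse 1 and KO mouse 10 highest.

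**Figure D3:**
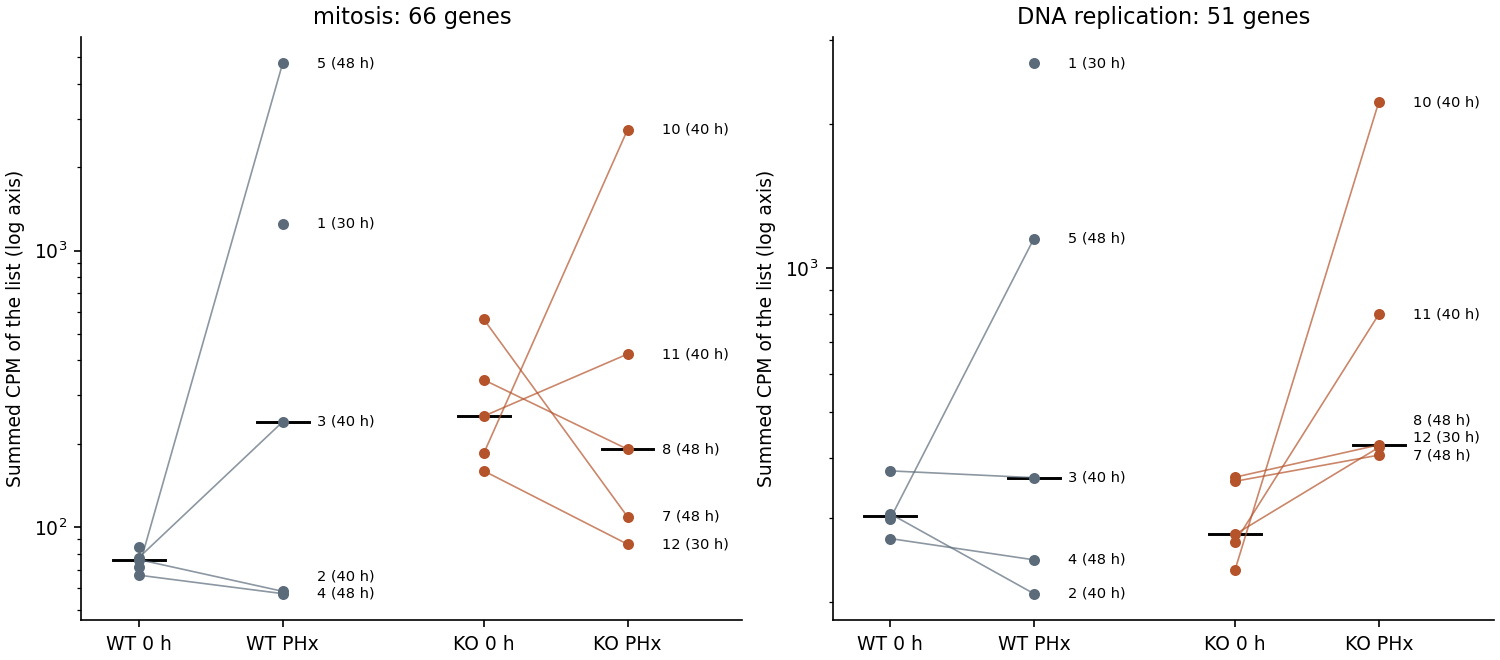
Summed CPM, on a log axis, of 66 mitosis and 51 DNA replication genes in each library, with lines joining the samples of a mouse, bars at the group median and labels giving the mouse and the time after PHx. After PHx the mitosis sum ran from 57.3 to 4762 CPM in WT and from 86.5 to 2739 CPM in KO, with KO mouse 10 standing above the other KO mice.

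Mki67, a marker of cycling cells, showed the same spread, with 1.76, 0.60, 0.823, 0.826 and 0.505 CPM in WT at baseline and 82.3, 0.217, 14.2, 0.284 and 328 CPM after PHx. In KO it was at 34.6, 26.5, 3.38, 4.28 and 2.49 CPM before and 3.42, 8.17, 119, 25.3 and 3.65 CPM after. The genotypes overlapped after PHx, and the difference was -5.42 (SE 1.98, adjusted p 0.234). Ccnb1, for cyclin B1 of mitotic entry, had a difference of -7.00 (SE 2.33, adjusted p 0.198), Ccna2, for cyclin A2, -5.70 (SE 2.00, adjusted p 0.221), and Aspm, for a spindle pole protein, -6.03 (SE 1.81, adjusted p 0.152). The helicase subunit gene Mcm5 was at -2.75 (adjusted p 0.416), Top2a, for a topoisomerase, at -3.93 (adjusted p 0.377), and Gins2, for a subunit of the replication helicase, at -2.88 (adjusted p 0.318). Ccnd1, for cyclin D1 of G1 phase, had means of 22.9, 135, 216 and 189 CPM in the usual order of groups and a difference of -2.75 (adjusted p 0.236). The G1 regulator list had 0 of 29 called and a median of -0.10, and the CDK inhibitor genes Cdkn1a and Cdkn2a were at -1.64 (adjusted p 0.337) and -1.70 (adjusted p 0.475), with Cdk6 at -0.77 (adjusted p 0.224) and the transcription factor gene Myc at -1.49 (adjusted p 0.476).

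The mitosis result moved with the time and with single mice, which cannot be told apart, since KO mouse 10 is 1 of the 2 KO mice at 40 h and WT mouse 5 is 1 of the 2 WT mice at 48 h. At 40 h, with 2 mice per group after PHx, the median difference of the list was 0.20 and 0 were called, of 123 genes called in all (0.839%; 92 lower, 0.628%, and 31 higher, 0.211%). At 48 h it was -7.80 and 39 were lower, of 543 called in all (3.7%), 336 lower (2.29%) and 207 higher (1.41%). Of the 2 WT mice at 48 h, mouse 5 had a mitosis sum of 4762 CPM and mouse 4, at 57.3 CPM, lay below the WT baseline range, so the rise in WT at that time is that of 1 mouse. Without KO mouse 10 after PHx, 708 genes were called (4.74% of 14935), 296 lower (1.98%) and 412 higher (2.76%), and all of the 57 were among them. In that fit 38 of the 66 mitosis genes were lower, Mki67 among them (adjusted p 0.0477), and the median was -6.58. Leaving out both libraries of KO mouse 10 gave 185 lower and 262 higher.

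Other single libraries moved the counts in either direction. The lower set grew to 47, 37 and 49 without WT mouse 1, 4 or 5 after PHx and to 36 without KO mouse 12 after PHx. It shrank from 33 to 19, 17, 21 and 15 without WT baseline replicate 1, 2, 3 or 5 and to 17 without WT mouse 3 after PHx. The higher set shrank from 24 to 7, 7, 10, 10 and 7 without WT baseline replicate 1, 2, 3, 4 or 5, and to 8, 9 and 15 without WT mouse 3, 4 or 5 after PHx. Without KO baseline replicate 7, 8, 10, 11 or 12 it was 7, 6, 9, 7 and 8, and without KO mouse 8 or 11 after PHx 6 and 9. The higher set grew to 37 without KO mouse 12 after PHx. The count thus moved by over 1.5 times in 17 of these 20 fits for the higher set and in 6 for the lower set.

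**Figure D4:**
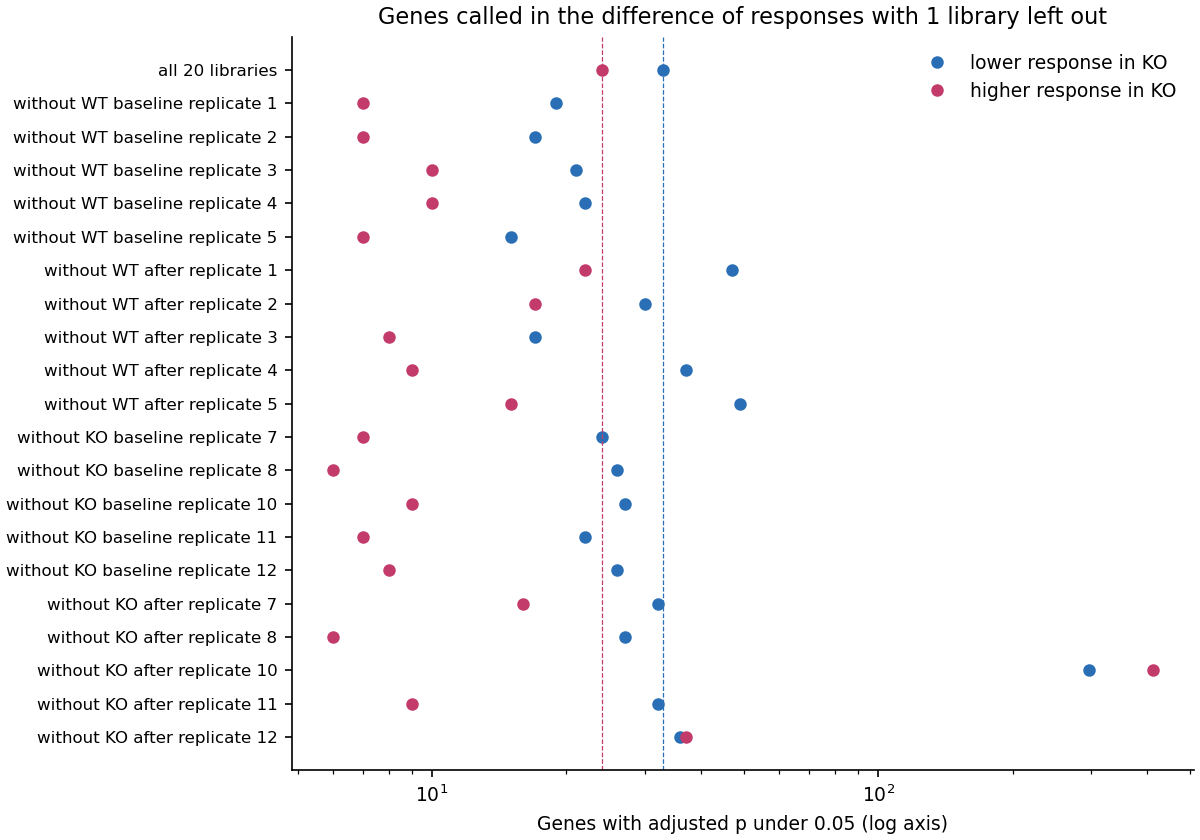
Number of genes called with a lower (blue) or higher (red) response in KO, on a log axis, with all 20 libraries and with each library left out; dashed lines mark the 33 and 24 genes of the full fit. Leaving out KO mouse 10 after PHx gives 296 and 412, far beyond the other fits, which range from 15 to 49 lower and from 6 to 37 higher.

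PRC2 keeps many developmental transcription factor genes silent. Of 133 such factors on the list 77 passed the filter on low counts, and 0 of these were called in the difference by edgeR. In WT 95 of the 133 had no count at baseline and 83 had none after PHx, against 20 and 7 in KO. Many members thus passed the filter only through the KO libraries, so counts over the 77 support nothing about the list, and the other listed factors were not tested. Beside the 0 calls, 6 were higher and 1 lower at an unadjusted p under 0.05, passed by 7.33% and 6.02% of all genes. DESeq2 called 2 higher and 1 lower, beside 187 and 178 of all 14661 genes. The member with the smallest p was Hand2, for a developmental transcription factor that stellate cells also express, at -1.62 (adjusted p 0.134).

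Of 36 fetal and oncofetal liver genes tested, Ly6d was called lower (0.225% of all genes) and Igf2 higher (0.164% of all genes), and the list median was -0.03. Neither was called with library size alone as the scaling (adjusted p 0.0539 and 0.0501). Afp, for alpha-fetoprotein, the main fetal plasma protein, rose in both genotypes, with means of 0.471 ± 0.215 CPM in WT at baseline, 5.94 ± 5.46 CPM in WT after PHx, 1.07 ± 0.407 CPM in KO at baseline and 48.1 ± 61.2 CPM in KO after PHx (SD, n = 5), and its difference was 1.87 (adjusted p 0.59). Igf2bp3, for a fetal RNA-binding protein, had no count in WT at baseline and was at least 7.34-fold higher in WT after PHx, and in KO it averaged 19.2 and 31.1 CPM. Its difference missed the threshold (adjusted p 0.103).

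Ribosome biogenesis genes mostly had differences above 0. Of 50 tested 36 rose and 1 fell in KO, where 17.5% of all genes rose, and 6 rose in WT, about the share among all genes there (11.4%). Of the 50 differences 44 were above 0, with a median of 0.44, 0.06 at 40 h, 0.39 at 48 h and 0.32 with library size alone as the scaling. None passed edgeR's test of the difference, and 10 were higher at an unadjusted p under 0.05 (7.33% of all genes). DESeq2 called 1 higher, beside 187 of all 14661 genes. Nolc1, for a nucleolar phosphoprotein, had the smallest p, at 1.15 (adjusted p 0.109). Nrf2 and glutathione genes leaned the other way: 31 of 37 were below 0, with a median of -0.43, and 10 were lower at an unadjusted p under 0.05 (6.02% of all genes). None was called by edgeR, and DESeq2 called 5 lower, beside 178 of all 14661 genes. With edgeR 5 were called lower with library size alone as the scaling, beside 48 of all 14661 genes. At 40 h 2 were lower (0.628% of all genes) and at 48 h 10 (2.29%), with a median of -1.03 at 48 h. Without KO mouse 10 after PHx 6 were lower (1.98%). Gstm3, for a glutathione transferase, lay just outside the threshold, at -3.54 (adjusted p 0.0505), with means of 79.7, 286, 576 and 178 CPM.

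**Figure D5:**
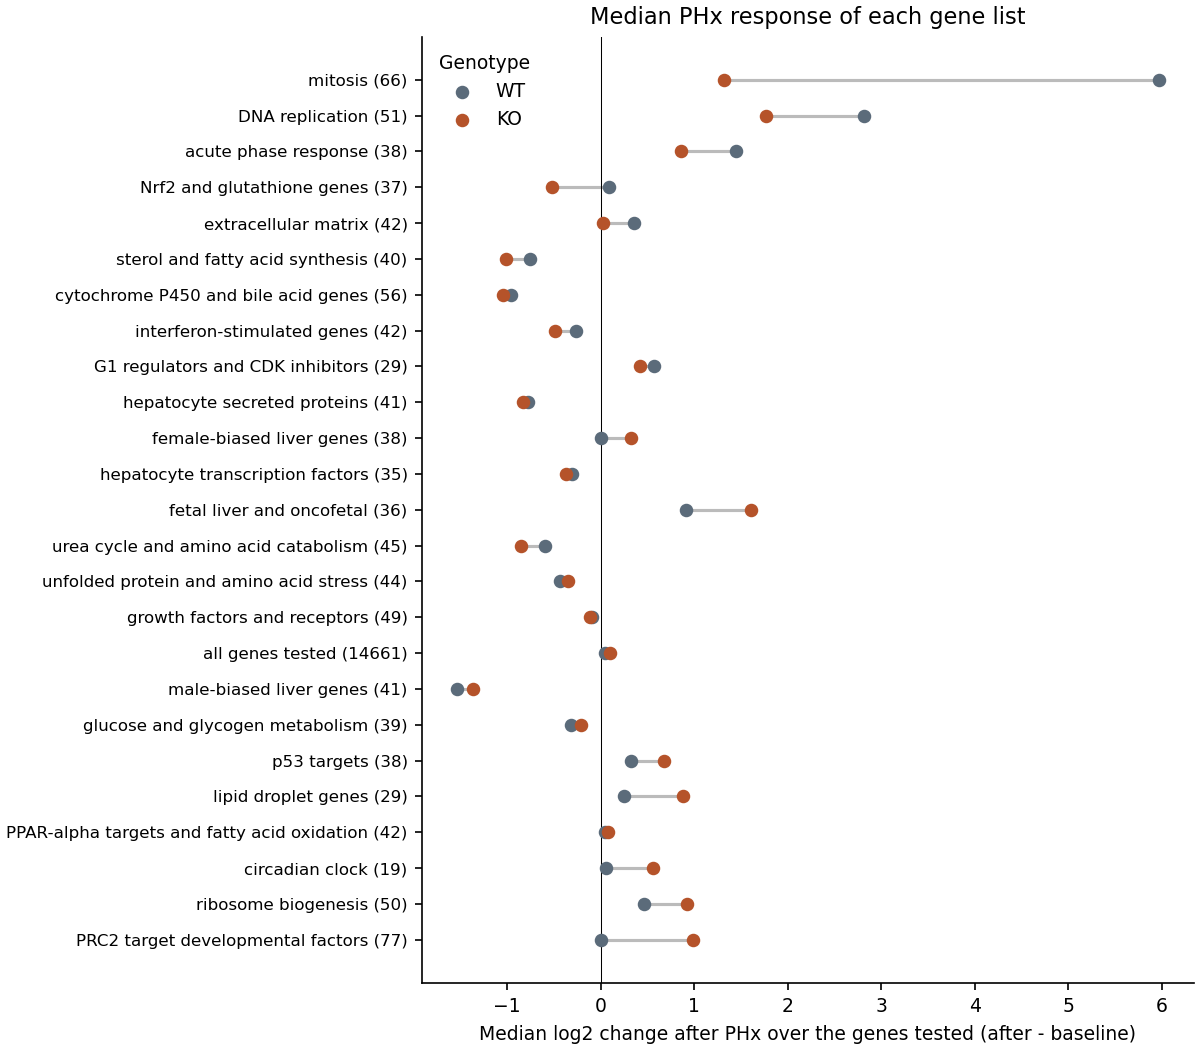
Median log2 change after PHx in WT (grey) and KO (orange) over the tested genes of each of 24 gene lists and of all genes, with the number of genes in brackets, ordered by the difference. Mitosis has the widest gap, at medians of 5.97 and 1.32, and most metabolic lists lie close together.

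In the lists of mature liver functions 1 gene, Abcb4, passed the test of the difference. Of 41 genes for hepatocyte secreted proteins 19 fell and 2 rose in WT, where 8.68% of all genes fell, and 23 fell and 1 rose in KO, where 12.1% fell, with a median difference of -0.10 and 0 called. Alb, for albumin, had means of 92620, 63997, 59795 and 38838 CPM and a difference of -0.09 (adjusted p 0.954). Cytochrome P450 and bile acid genes had this 1 of 56 called and a median of -0.15, which turned from 0.30 at 40 h to -1.31 at 48 h. Cyp7a1, the rate-limiting enzyme of bile acid synthesis, was at 1.15 (adjusted p 0.851) with an SE of 1.97. In each of the male-biased, female-biased, urea cycle and amino acid, glucose and glycogen, sterol and fatty acid synthesis, PPAR-alpha, and hepatocyte transcription factor lists 0 genes were called by edgeR, and the medians were 0.04, -0.09, -0.0035, 0.07, -0.33, 0.18 and -0.05. At an unadjusted p under 0.05 (13.3% of all genes) there were 4 of 41, 8 of 38, 3 of 45, 5 of 39, 8 of 40, 4 of 42 and 5 of 35 genes in either direction, in that order. DESeq2 called 1, 3, 0, 2, 1, 2 and 1, beside 365 of all 14661 genes. The medians were -0.45, 0.25, 0.03, 0.02, -0.23, 0.05 and 0.12 at 40 h and -0.08, -0.60, -0.69, -0.09, -0.60, 0.40 and -0.06 at 48 h. At 48 h edgeR called 1, 1, 0, 2, 0, 3 and 1 higher (1.41% of all genes) and 0, 2, 3, 0, 3, 0 and 2 lower (2.29%). With the mouse block 1 female-biased gene was called lower, beside 5 genes in all.

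In the stress, clock, growth factor and matrix lists 0 genes were called by edgeR as well. The medians were 0.00 for unfolded protein and amino acid stress, 0.08 for p53 targets, 0.38 for the circadian clock, 0.00 for growth factors and receptors and -0.35 for extracellular matrix. At an unadjusted p under 0.05, passed by 7.33% of all genes as higher and 6.02% as lower, 7 of 44 stress genes were higher and 0 lower, and 7 of 38 p53 targets were higher and 8 lower. Of 19 clock genes 2 were higher and 0 lower, of 49 growth factor genes 2 were higher and 5 lower, and of 42 matrix genes 0 were higher and 6 lower. DESeq2, with 187 higher and 178 lower calls over all genes, called 4, 4, 0, 2 and 3 of these lists in either direction. The interferon list had Ifi27l2b called of 42 and a median of -0.10, which turned from 0.60 at 40 h to -0.74 at 48 h. Col1a1, for type I collagen, was at -0.56 (adjusted p 0.766).

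Kupffer cells are the resident macrophages of the liver. All 16 Kupffer cell and macrophage markers had a difference below 0, beside 7315 of all 14661 genes, with a median of -0.64. None was called by edgeR, and DESeq2 called 1 lower, beside 178 of all genes. At an unadjusted p under 0.05, 3 were lower (6.02% of all genes) and 0 higher. Their summed level was 242 to 413 CPM in WT at baseline, 103 to 502 in WT after PHx, 638 to 837 in KO at baseline and 193 to 562 in KO after PHx. At baseline the genotypes were thus apart, KO being higher and after PHx they overlapped. No marker of this list was without counts in a group, and its part in the results was not tested. Medians of the endothelial, stellate cell, lymphocyte, erythroid and mesothelial lists were -0.08, -0.41, 0.09, -0.44 and -1.10, with 0 called by edgeR. The lymphocyte median was 2.07 at 40 h and -0.34 at 48 h, with 0 called at either time. At an unadjusted p under 0.05 there were 0 of 16, 1 of 15, 1 of 11, 0 of 6 and 2 of 5 genes, in the order of the lists. The lymphocyte gene was higher (7.33% of all genes) and the others were lower (6.02%).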

How the data were processed

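For each of the 20 libraries of mouse liver poly(A) RNA the authors deposited a file of raw counts by Ensembl gene identifier. Per the design text, reads that mapped uniquely to mm10 were counted. Per the submitters' processing notes FastQC 0.11.5 and Trimmomatic 0.36 were used, while the design text names fastp for trimming. Aligner, counter, strandedness and gene annotation are not given in the sources used here. Totals ran from 21634890 to 30461351 counts per library, and 21018 of 46603 identifiers had no count. Symbols and positions came from GENCODE M21 (GRCm38), which holds 46091 identifiers, and upstream sequences from RefSeq (GRCm38.p6), where all 4 genes looked up had 1 entry. Windows were aligned with Biopython 1.88.

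All 20 libraries entered 1 fit of 4 group means in edgeR 4.0.16 (R 4.3.3, TMM, filterByExpr, quasi-likelihood test, two-sided), and the difference of responses was a contrast of it. CPM were scaled by the TMM library sizes. A gene was called at an adjusted p under 0.05 (Benjamini-Hochberg). In data simulated for these 4 groups on 14423 genes, the contrast recovered 61% of 100 differences of log2 2 and 86% of 100 of log2 4. There were 5 false among 152 calls. The simulated libraries were independent, with no pairing by mouse, no times after PHx and no outlying library. These rates therefore need not hold for the genes called here. Where a group had 0 counts, 3 counts over the group served as the floor, and intervals are exact at 95% and cover counting error only. The p-values measure the spread between libraries within a group, where mice and times after PHx are mixed. Pairing by mouse does not enter the main fit.

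The members and lists were chosen with earlier results of these data known. The genes named were the 12 highest and 12 lowest called with a group mean of at least 1 CPM, up to 3 called genes per list or else the member with the smallest p, and 18 chosen genes. The others of the 57 were named to make the set complete. There were 24 pathway and 10 cell marker lists. Alternatives were DESeq2 1.42.0, limma-voom (limma 3.58.1), other scalings and filters, the time after PHx, each library left out, and the mouse as a block. The pairing comes from the labels, by which both samples are from 1 mouse, and 9 mice are numbered in the titles of both. Same-mouse residual correlations ran from -0.05 to 0.15 (mean 0.05), against -0.23 to 0.26 (mean -0.01) for the other pairs within a genotype. Those other pairs include all of WT baseline replicate 1, which has no mouse number and may share a mouse with WT replicate 1 after PHx.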

Additional observations from a re-analysis of the deposited data

Results flagged for a closer look

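Among 80 groups of 5 libraries, those of the 20 genes given library by library, 10 had a highest or lowest value set apart from the other 4 by Dixon's criterion. Chance sets apart about 1 in 20 groups. KO mouse 10 after PHx was highest of its group for Saa1 (1687 CPM), Saa2 (1635 CPM) and Mki67 (119 CPM). WT mouse 5 after PHx was highest for Mki67 (328 CPM) and Mybl1 (33.2 CPM), and WT mouse 2 after PHx for Pparg (11.5 CPM). KO mouse 7 at baseline was highest for Smpd3 (44.6 CPM) and Ly6d (79.5 CPM). KO mouse 12 after PHx was lowest for Apcs (28.1 CPM), and WT baseline replicate 1 was highest for Mki67 (1.76 CPM).

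The estimated difference of responses was not the same at 40 h and 48 h, where time and single mice cannot be told apart. In a fit of 1 mean per genotype and time point, 236 genes had a higher and 456 a lower difference at 48 h than at 40 h (edgeR adjusted p under 0.05), each from 2 mice per genotype and time. None of the 57 genes was among them. The main fit counts change between times as spread, which favours genes that vary little between them, so this adds no evidence.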

How the results depend on the processing

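Counts are given as lower then higher responses in KO, 33 and 24 as reported. DESeq2 gave 178 and 187, limma-voom 10 and 6, and the same with the mouse as a correlated replicate block 10 and 7. The mouse as a fixed replicate block gave 5 and 2, and the same 18 libraries without a block 25 and 9. Size factors in place of TMM gave 33 and 20, library size alone 48 and 9, no filter 35 and 14, and 1 CPM in 5 libraries 34 and 29. A term for time gave 56 and 34, the 40 h contrast 92 and 31, the 48 h contrast 336 and 207, and leaving out the 30 h libraries 54 and 36. Without both libraries of KO mouse 10, chosen after seeing the data as was the fit without a block, there were 185 and 262. An adjusted p under 0.01 left 8 and 2. Leaving out each library gave 15 to 296 lower and 6 to 412 higher. DESeq2 and the fits without KO mouse 10 kept all 57 genes.

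None of the 57 genes changed sign under these alternatives. Genes that were not called did: at 40 h Top2a (0.20), Mcm5 (1.07) and Cdkn2a (3.34), Alb without WT mouse 2 after PHx (0.030) or KO baseline 8 (0.021; -0.38 to 0.030 over all such fits), and Cyp7a1 with the time term (-2.13), at 48 h (-6.36), without KO mouse 10 after PHx (-2.33) or both its libraries (-2.37; -2.33 to 2.12 without 1 library). Plin2 turned with limma-voom (0.13, and 0.12 with the correlated block), at 48 h (0.28), and without WT mouse 2 (0.35) or 4 (0.11), KO mouse 10 (0.14; both libraries 0.13) or 11 (0.030) after PHx, from -0.40 to 0.35 in all without 1 library. The cause was not tested. Limits are 5 mice per group, 1 to 2 per time, and baseline levels near 0 counts in WT, where sizes are imprecise.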

Other observations

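Several genes of the lists missed the threshold and were called in 1 to 8 of the 34 alternatives. The response leaned higher in KO for Erbb2, for a growth factor receptor of the EGF receptor family, with means of 0.755, 0.685, 1.97 and 19.8 CPM in WT before surgery, WT after it, KO before and KO after and a difference of 3.47 (adjusted p 0.0653). Vldlr, for a lipoprotein receptor, was at 2.78 (adjusted p 0.0766), and Prom1, for the membrane protein prominin 1, at 1.94 (adjusted p 0.0653). Epcam, for an epithelial adhesion protein, averaged 0.801, 0.965, 2.37 and 18.1 CPM and was at 2.63 (adjusted p 0.192). Ppp1r3g, for a glycogen-targeting phosphatase subunit, fell from 39.97 to 0.114 CPM in WT and from 10.8 to 0.711 CPM in KO, a difference of 4.46 (adjusted p 0.0505). Acaa1b, for a peroxisomal thiolase, was at 1.79 (adjusted p 0.0669).

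The response leaned lower in KO for Apoa4, for a lipid-carrying apolipoprotein, with means of 88.8, 8269, 622 and 7186 CPM and a difference of -3.01 (adjusted p 0.0565), and Scd2, for a fatty acid desaturase, with 4.45, 4.34, 464 and 68.3 CPM and -2.73 (adjusted p 0.144). Timp1, for an inhibitor of matrix proteases, had 3 counts in WT at baseline and a ratio of 62.8 after PHx (95% counting interval 21.2 to 307), with a difference of adjusted p 0.0755. Trem2, for a macrophage receptor, was at -2.97 (adjusted p 0.132). The remaining members with the smallest p of their lists had adjusted p-values from 0.103 (Sesn1) to 0.637 (Hba-a2).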
